A study of Mus musculus with 10 samples.

Results

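The genes described here encode the subunits and assembly factors of respiratory complex I and were chosen as the protein coding genes whose symbol starts with Nduf. There were 48 such genes among the 57185 with a value in the count table, and 47 of them had more than 10 counts in at least 6 of the 10 mice and were tested. Ndufb11b had 0 to 2 counts per mouse and was not tested. Of the 47, 37 encode subunits of the modules described here, 8 encode the assembly factors Ndufaf1 to Ndufaf8, and the remaining pair, Ndufa4 and Ndufa4l2, was kept apart.

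RNA came from the heart ventricle of 5 MLPKO and 5 MLPKO-cRADKO mice. The study names the tissue as left ventricle in its results and as the apical part of the ventricle in its methods. The mice were male by the study's description. Both genotypes lacked the muscle LIM protein gene Csrp3 (MLP), carried floxed alleles of Rrad (RAD), and received tamoxifen at 100 mg/kg in a single injection at 10 weeks. Only MLPKO-cRADKO mice also carried MYH6-MerCreMer, a tamoxifen-activated Cre expressed in cardiomyocytes, so that Rrad was removed from cardiomyocytes and not from the other cells of the heart. Hearts were taken 1 month after tamoxifen by the study's description. The labels give an age of 16 weeks, which is later than 1 month after 10 weeks. The comparison asks what changes when RAD is lost from a heart that has already dilated. No mouse with intact MLP was analysed here, MLPKO mice carried no Cre, and the action of Cre and the loss of RAD cannot be told apart in these groups.

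Complex I takes electrons from NADH, passes them along iron-sulphur clusters to ubiquinone, and pumps protons across the inner mitochondrial membrane. Its peripheral arm is made of an N module, where NADH is oxidized, and a Q module, where ubiquinone is reduced, and its membrane arm is the proton pump. A small catalytic core is shared with bacteria, and a larger number of supernumerary subunits surround it. The hydrophobic core subunits are encoded by mitochondrial DNA, and all Nduf genes are nuclear. The heart, which draws nearly all of its ATP from oxidative phosphorylation, is among the tissues richest in this complex, and inherited defects of its subunits or assembly factors can cause cardiomyopathy.

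The total count per library lay between 33457406 and 49965101. Cardiomyocyte markers summed to between 64990 and 71660 CPM (counts scaled by library size) in MLPKO and between 54480 and 64110 in MLPKO-cRADKO, so the tissue was cardiac by its markers. Counts over the whole Rrad gene ranged from 5774 to 11646 normalized counts in MLPKO and from 5562 to 8361 in MLPKO-cRADKO, and the groups overlapped. Csrp3 still gave 41725 to 134790 normalized counts in MLPKO and 28553 to 48660 in MLPKO-cRADKO, with means of 73421 ± 37890 and 34730 ± 8158 (SD, n = 5) and a log2 fold change of -1.08 (adjusted p of 0.0666 by edgeR and 0.0362 by DESeq2). Whole-gene counts do not separate the deleted part of either gene from the rest, and therefore did not check the labels. From 1 to 20 counts, between 73.7% and 80.3% of the values in a library were even, and 3 libraries stood apart at the top of that range, MLPKO 5, MLPKO-cRADKO 1 and MLPKO-cRADKO 2.

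As a list, complex I genes had a slightly higher median in MLPKO-cRADKO hearts, with few single genes past the test. The members varied together from mouse to mouse, so counts of members are not counts of independent results. Their median log2 deviation from the 10-mouse mean overlapped between genotypes (-0.17 to 0.06 in MLPKO, -0.02 to 0.15 in MLPKO-cRADKO). Of the 47 members, 44 (93.6%) had a log2 fold change (MLPKO-cRADKO over MLPKO) above 0, beside 52.1% of all 13454 genes tested. The median over the members was 0.13, an increase of 9.09%, beside 0.01 over all genes, and the values lay between -0.05 and 0.37. By the quasi-likelihood test of edgeR, with an adjusted p under 0.05 over all genes, 2 members rose (4.26%, beside 0.944% of all genes called higher) and 0 fell (beside 1.8% of all genes called lower, or 2.74% called in either direction). These were Ndufa1 and Ndufv3. At an unadjusted p under 0.05, 14 members were higher (29.8%, beside 10.1% of all genes), and 0 were lower. DESeq2 called 3 members higher (6.38%, beside 3.81%), which were the same pair and Ndufs6. In bulk tissue, a smaller share of a cell type and less RNA per cell cannot be told apart.

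**Figure D1:**
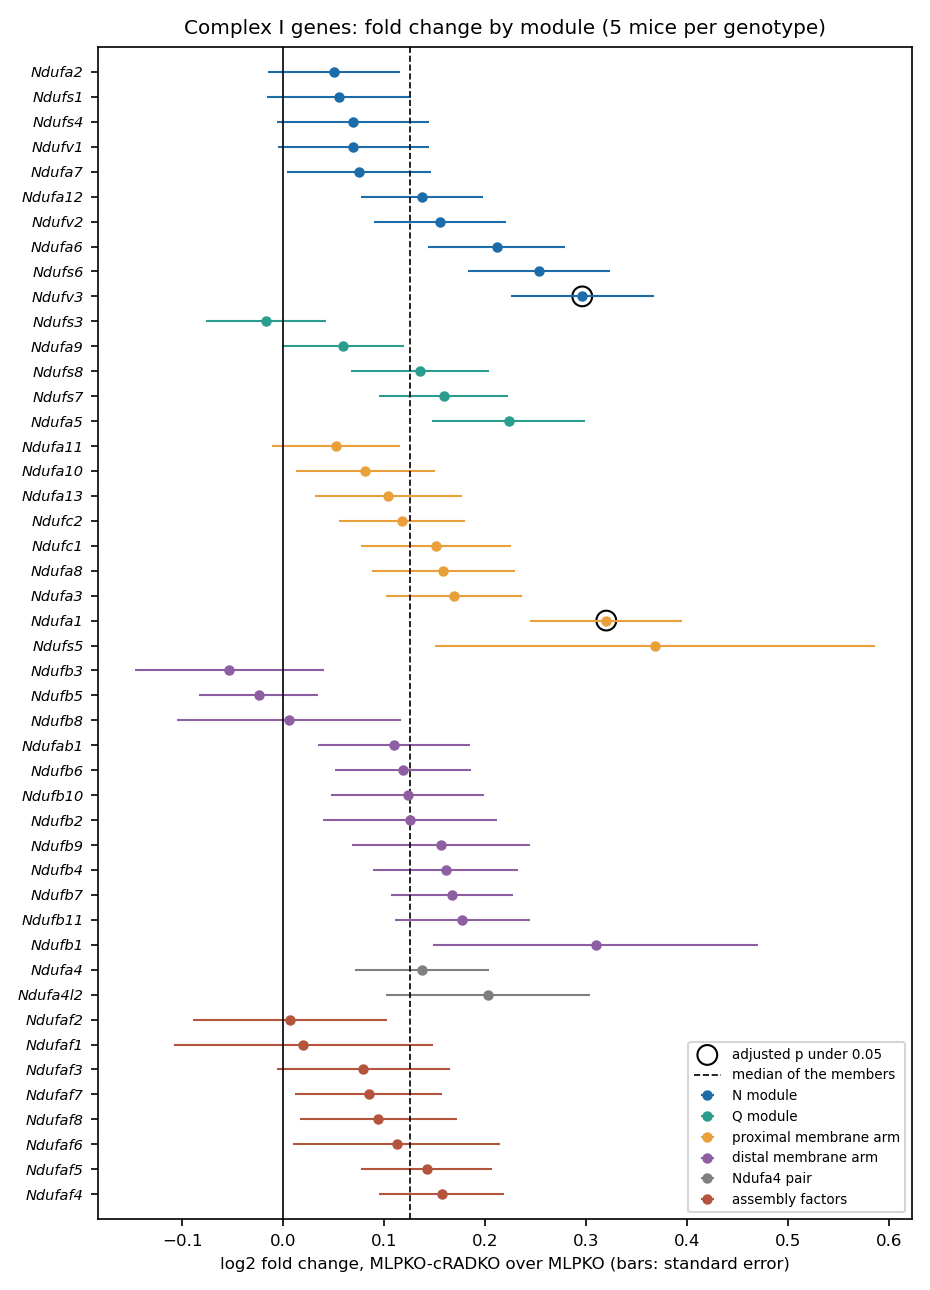
Log2 fold change of MLPKO-cRADKO over MLPKO for the complex I genes tested and reported here, grouped by module, with the standard error as a bar and circles around the genes with an edgeR adjusted p under 0.05. All but 3 points lie to the right of 0, the dashed line marks the median of 0.13, and Ndufv3 and Ndufa1 are circled.

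Ndufa1 encodes a small supernumerary subunit with a membrane anchor in the proximal arm, and mutations in the X-linked human gene cause complex I deficiency. The gene lies at chrX:36451241-36454849 (GRCm39, minus strand) and none of its transcript is shared with another locus or gene. Its normalized counts were 4397, 4404, 4937, 4691 and 5320 in MLPKO mice 1 to 5, and 6167, 6580, 5517, 6058 and 5322 in MLPKO-cRADKO mice 1 to 5. The groups did not overlap, although only 1.7 normalized counts lay between the highest MLPKO mouse and the lowest MLPKO-cRADKO mouse. The means were 4750 ± 390 (SD, n = 5) and 5929 ± 509 (SD, n = 5), 125% of MLPKO. The log2 fold change was 0.32 ± 0.08 (SE), with an adjusted p of 0.0475 by edgeR.

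Ndufv3 encodes a small supernumerary subunit of the flavoprotein part of the N module, which exists in tissue-dependent splice forms that gene counts do not separate. It lies at chr17:31739052-31751735 (plus strand), again with no shared sequence. MLPKO mice 1 to 5 had 4850, 4619, 5318, 5289 and 5580 normalized counts, and MLPKO-cRADKO mice 1 to 5 had 6470, 6746, 5938, 6685 and 5659. As for Ndufa1, every MLPKO-cRADKO mouse was above every MLPKO mouse, and mouse 5 of each genotype lay next to the gap. The log2 fold change was 0.30 ± 0.07 (SE), 123% of the MLPKO mean, with an edgeR adjusted p of 0.0493.

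Both calls lay close to the threshold. With any 1 of the mice other than MLPKO 4 left out, neither gene passed (edgeR adjusted p from 0.0488 to 0.103 for Ndufa1 and from 0.0439 to 0.105 for Ndufv3 over the 10 leave-outs), while the log2 fold changes stayed between 0.28 and 0.36 and between 0.26 and 0.34. Neither passed with RLE size factors, without the filter on low counts or with Gm and Rik genes kept (edgeR adjusted p from 0.0504 to 0.0629), nor without the 3 libraries with the most even counts, an alternative chosen after seeing the data (0.168 and 0.196, with 2 genes of all those tested called).

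Ndufs6, a zinc-binding subunit of the N module, had 6870, 5944, 7310, 6905 and 7479 normalized counts in MLPKO mice and 8240, 8775, 7541, 8548 and 8016 in MLPKO-cRADKO mice. The groups did not overlap, and the log2 fold change was 0.25 ± 0.07 (SE), with an adjusted p of 0.0697 by edgeR and 0.0197 by DESeq2. Ndufaf4, an assembly factor that works with Ndufaf3 on early membrane arm intermediates, was the remaining member without overlap. It had 2266, 1883, 2114, 2267 and 2252 normalized counts in MLPKO and 2320, 2348, 2511, 2341 and 2499 in MLPKO-cRADKO, a log2 fold change of 0.16 ± 0.06 (SE) with an edgeR adjusted p of 0.17. In all, the groups did not overlap for 4 of 47 members, all higher in MLPKO-cRADKO (8.51%, beside 2.64% of all genes higher without overlap and 6.62% without overlap in either direction).

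The other members with the smallest p-values did not pass the test. Ndufa6, a LYR-motif protein that binds the acyl carrier protein Ndufab1, had 6162, 6065, 5932, 6085 and 6999 normalized counts in MLPKO and 7576, 7818, 6781, 7461 and 6541 in MLPKO-cRADKO (log2 fold change 0.21, edgeR adjusted p of 0.102). MLPKO 5 stood above the other MLPKO mice and above MLPKO-cRADKO 3 and 5. Ndufa5, a Q module subunit, had 8687, 7614, 9368, 8960 and 9816 against 10799, 10900, 9898, 10947 and 9335 normalized counts (log2 fold change 0.22, edgeR adjusted p of 0.118). Only MLPKO-cRADKO 5 fell inside the MLPKO range.

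Ndufb7, a twin-cysteine subunit on the intermembrane space side of the distal membrane arm, had 6143, 5954, 6574, 6050 and 6733 normalized counts in MLPKO and 6877, 7583, 6659, 7487 and 6702 in MLPKO-cRADKO (log2 fold change 0.17, edgeR adjusted p of 0.135). Ndufb11, the X-linked distal arm subunit, had 9442, 8568, 9168, 9845 and 9150 against 10294, 11469, 9219, 10950 and 10277 (log2 fold change 0.18, edgeR adjusted p of 0.149). For each of these genes 1 or 2 MLPKO-cRADKO mice lay inside the range of MLPKO. Of the transcript of Ndufb11, 67.8% of the exonic bases overlap Rbm10 on the opposite strand, and for Ndufa6 59.0% overlap Smdt1, and the strand setting of the counting is not given in the sources used here.

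**Figure D2:**
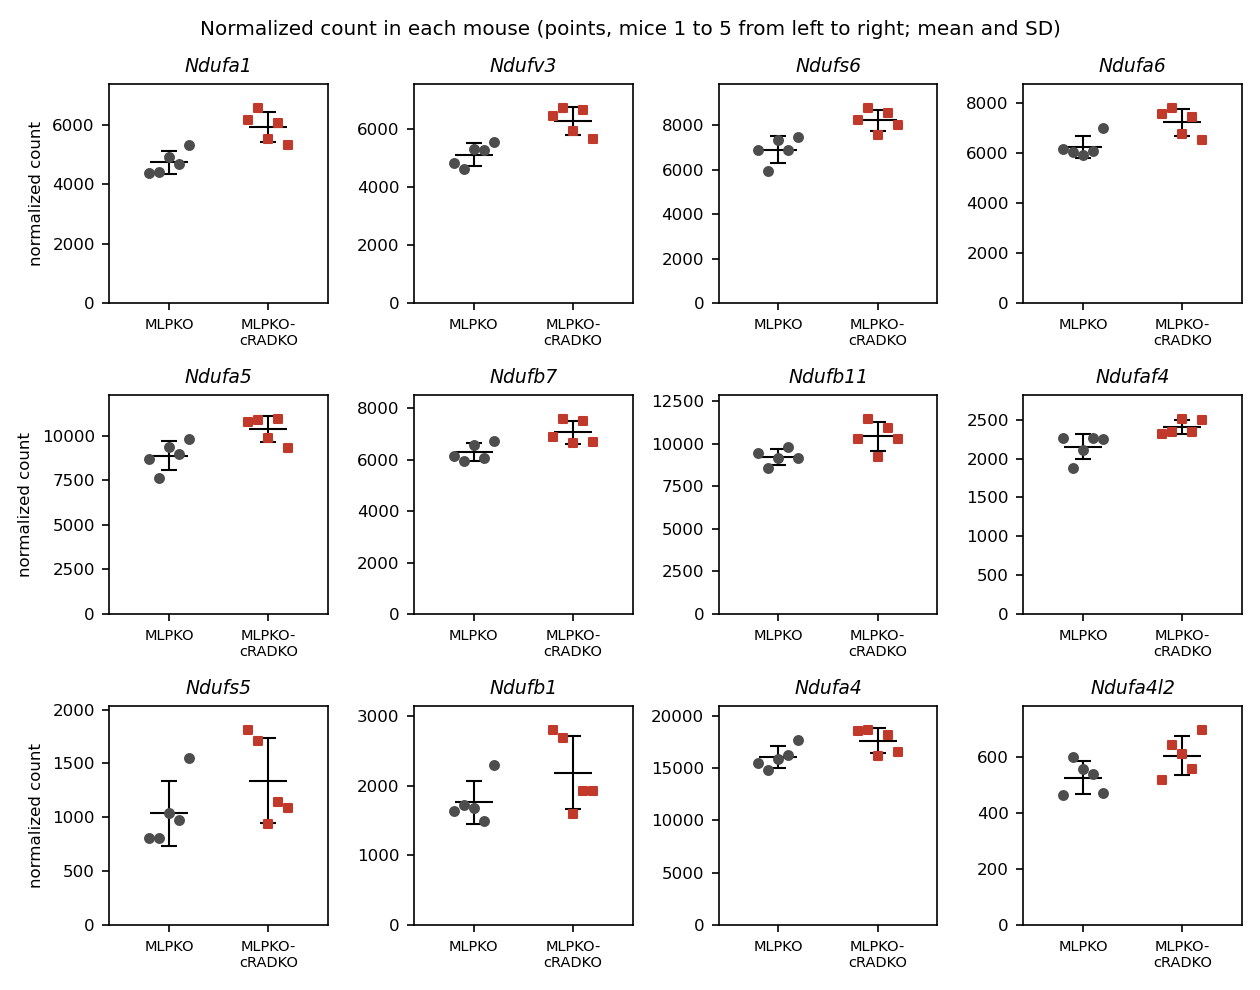
Normalized count (vertical axes from 0) in each of the 5 MLPKO mice (circles) and 5 MLPKO-cRADKO mice (squares) for 12 complex I genes, with the mean and SD in black. The groups are apart for Ndufa1, Ndufv3, Ndufs6 and Ndufaf4, and the spread within a genotype is widest for Ndufs5 and Ndufb1.

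Among the 3 largest fold changes, those of Ndufs5 and Ndufb1 had the widest spread, while that of Ndufa1 passed the test. Ndufs5, a membrane arm subunit facing the intermembrane space, had 808, 806, 1039, 977 and 1547 normalized counts in MLPKO and 1811, 1710, 941, 1144 and 1085 in MLPKO-cRADKO, with a log2 fold change of 0.37 ± 0.22 (SE) and an edgeR adjusted p of 0.356. Ndufb1, a small distal arm subunit, had 1636, 1721, 1675, 1498 and 2298 against 2802, 2684, 1599, 1931 and 1928 (log2 fold change 0.31 ± 0.16, edgeR adjusted p of 0.293). In both genes the 3 highest mice among all 10, apart from the order, were MLPKO 5, MLPKO-cRADKO 1 and MLPKO-cRADKO 2, the libraries with the largest shares of even counts. Without those 3 libraries the log2 fold change was 0.22 for Ndufs5 and 0.16 for Ndufb1. Of the exonic bases of Ndufb1, 54.8% overlap Cpsf2 on the opposite strand, and the strand setting of the counting is not given.

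**Figure D3:**
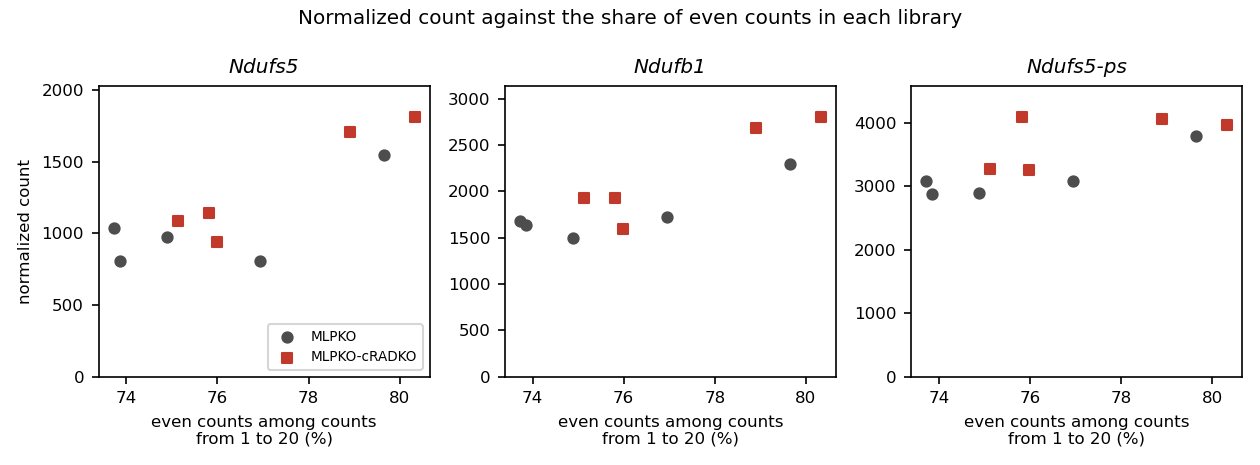
Normalized count of Ndufs5, Ndufb1 and the pseudogene Ndufs5-ps (vertical axes from 0) against the share of even values among counts from 1 to 20 in each of the 10 libraries (horizontal axes, %). The 3 libraries above 78% hold the 3 highest counts of Ndufs5 and Ndufb1, while for Ndufs5-ps MLPKO-cRADKO 4 is the highest.

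Ndufs5 also has a near-identical copy in the genome. The processed pseudogene Ndufs5-ps on chromosome 16 matches all 318 coding bases of Ndufs5 but for 2 mismatches, an identity of 99.4%, and 72.5% of the 100-base windows of the Ndufs5 transcript align elsewhere with at most 1 mismatch. The following sequences from the GRCm39 genome show the first coding stretch of Ndufs5 (chr4:123609723-123609872, minus strand) and the matching bases of the pseudogene (chr16:42775994-42776143, plus strand), with capitals at the differing bases, T81C and A105G, counted from coding base 1 of Ndufs5.
Ndufs5: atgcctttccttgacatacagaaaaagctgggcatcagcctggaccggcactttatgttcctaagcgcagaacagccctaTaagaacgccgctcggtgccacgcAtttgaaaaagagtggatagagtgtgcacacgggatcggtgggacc
Ndufs5-ps: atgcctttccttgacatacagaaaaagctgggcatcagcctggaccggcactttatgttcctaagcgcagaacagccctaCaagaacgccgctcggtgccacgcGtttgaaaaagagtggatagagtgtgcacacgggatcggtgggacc

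Ndufs5-ps received more counts than its parent, with a mean of 3144 ± 376 normalized counts in MLPKO and 3726 ± 424 in MLPKO-cRADKO (SD, n = 5 each). The share of the summed pair counted under Ndufs5 lay between 20.7% and 31.4% and was highest in MLPKO 5, MLPKO-cRADKO 1 and MLPKO-cRADKO 2. Counting both together, chosen after seeing the data, gave a log2 fold change of 0.28 with an edgeR adjusted p of 0.211. How the counting split reads between the pair is not given in the sources used here, so the level of Ndufs5 is uncertain.

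By module, the shift was spread over the complex. The N module had a median log2 fold change of 0.11 with 10 of 10 members above 0, the Q module 0.15 with 5 of 6, the proximal membrane arm 0.15 with 9 of 9, and the distal membrane arm 0.12 with 10 of 12. Ndufv3 in the N module and Ndufa1 in the proximal arm were the members called by edgeR, and the Q module, distal arm and assembly factors had 0. The 3 members below 0, none past the test, were Ndufb3 (-0.05), Ndufb5 (-0.02) and Ndufs3 (-0.02).

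The 7 nuclear core subunits, which bind the flavin, the iron-sulphur clusters and ubiquinone, had a median log2 fold change of 0.14, beside 0.13 for the 30 supernumerary subunits, and the difference was not tested. Among the core, Ndufs7, which lies at the ubiquinone site, had 0.16, and the iron-sulphur subunits Ndufv2 and Ndufs8 had 0.16 and 0.14. Ndufv1, which carries the flavin, had 0.07, Ndufs1, which holds several iron-sulphur clusters, had 0.06, and Ndufs3, which has no cluster, had -0.02. None of the core genes was called by edgeR, and 2 of the 7 had an unadjusted p under 0.05.

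The assembly factors had a median log2 fold change of 0.09, the lowest of these groups (the difference was not tested), with 8 of 8 above 0 and 1 at an unadjusted p under 0.05. The values were 0.16 for Ndufaf4, 0.14 for Ndufaf5, which hydroxylates Ndufs7, and 0.11 for Ndufaf6. Ndufaf8, the partner of Ndufaf5, had 0.09, Ndufaf7, a methyltransferase, had 0.08, and Ndufaf3 had 0.08. Ndufaf1, which acts with Ecsit and Acad9 on the membrane arm, had 0.02 ± 0.13 (SE), and Ndufaf2, a paralog of Ndufa12 that acts at a late step, had 0.01 ± 0.10 (SE). The direction of Ndufaf1 and Ndufaf2 changed when single mice were left out. The assembly factors without the Nduf prefix (13 of a list of 14 were matched and tested) had a median of 0.04 and 0 calls by edgeR. Of these, 7 were above 0 and 6 below (53.85% above, beside 52.1% of all genes). At an unadjusted p under 0.05 by edgeR, 4 were higher and 1 was lower, Timmdc1 (-0.13). Among these only Tmem126b, named after its values were seen and known for membrane arm assembly, was called by DESeq2 (log2 fold change 0.31, adjusted p of 0.0198, and 0.065 by edgeR).

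Levels differed far more between members than between genotypes. Per 1000 bases of transcript, the highest was Ndufa4 with 31820 normalized counts, and others near the top were Ndufb10 with 17800, Ndufs7 with 15150 and Ndufv1 with 13850. The lowest were Ndufb2 with 102, Ndufaf5 with 259, Ndufaf1 with 299, Ndufaf7 with 433 and Ndufaf6 with 461, and the range spanned 313-fold. All 8 assembly factors were among the 10 lowest members (median 544, beside 6203 for the 39 other members). Length here is that of the canonical transcript, and reads that share sequence or exons with another gene make the level of 29 members uncertain.

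**Figure D4:**
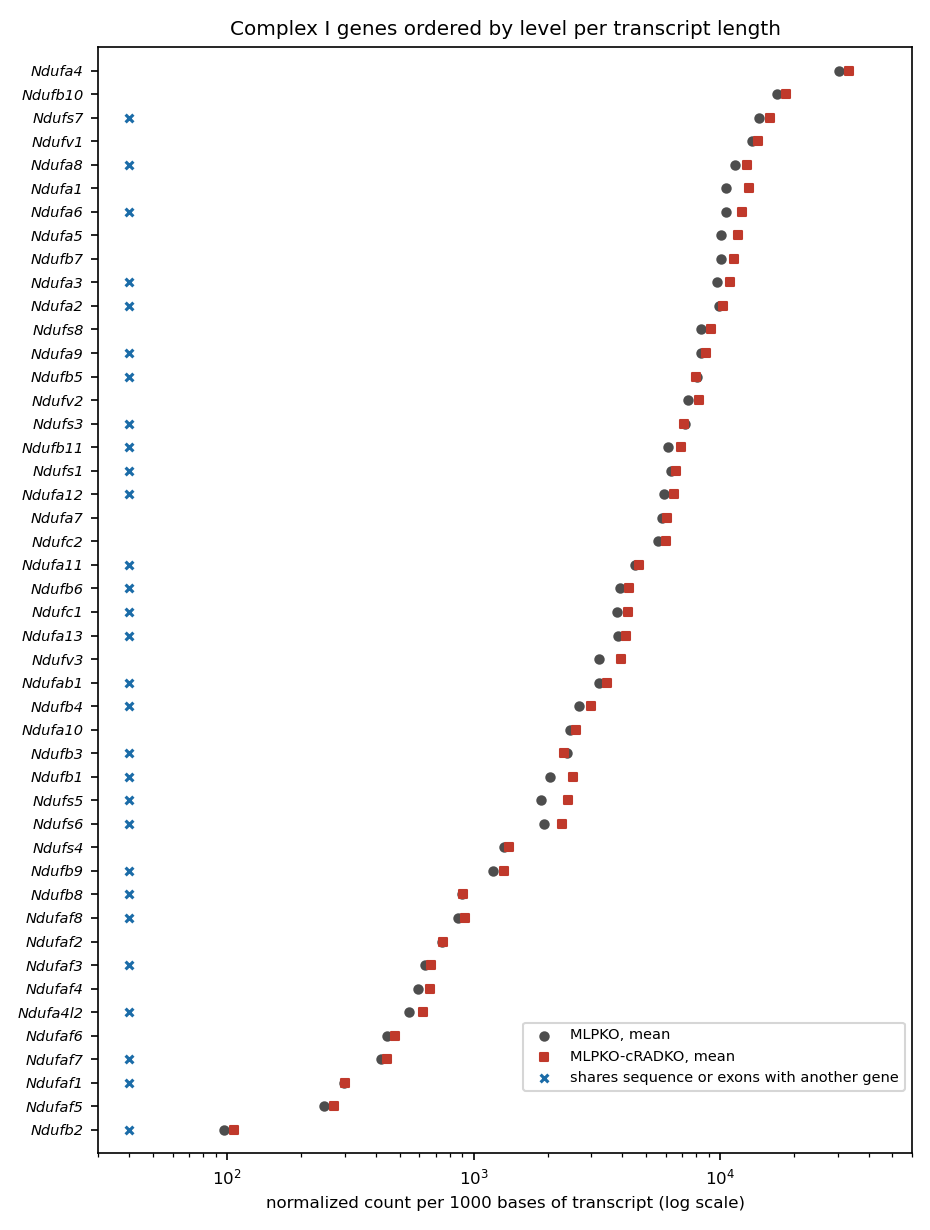
Mean normalized count per 1000 bases of transcript (log axis) of the members reported here in MLPKO (circles) and MLPKO-cRADKO (squares), ordered by level, with crosses at the left marking members that share sequence or exons with another gene. The distance between the genotypes is small beside the 313-fold range between members, and the assembly factors are near the bottom.

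Ndufa4 and its paralog Ndufa4l2 stood at opposite ends of that order. Ndufa4, named as a complex I subunit and now placed with cytochrome c oxidase, had 15537, 14835, 15900, 16237 and 17660 normalized counts in MLPKO and 18563, 18655, 16200, 18187 and 16544 in MLPKO-cRADKO (log2 fold change 0.14, edgeR adjusted p of 0.259). Ndufa4l2, the hypoxia-inducible form, had 465, 600, 558, 538 and 470 against 517, 643, 611, 557 and 697 (log2 fold change 0.20, edgeR adjusted p of 0.272). Neither gene separated the genotypes, and 75.2% of the exonic bases of Ndufa4l2 overlap Shmt2 on the opposite strand.

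The members varied together from mouse to mouse. MLPKO 2 was the lowest of all 10 mice for 28 of the 47 members, and MLPKO-cRADKO 4 or MLPKO-cRADKO 2 was the highest for 18 and 11. MLPKO 5 was the highest MLPKO mouse for 35 members. The median log2 deviation of the members from the 10-mouse mean was -0.08, -0.17, -0.04, -0.07 and 0.06 in MLPKO mice 1 to 5 and 0.06, 0.12, 0.00, 0.15 and -0.02 in MLPKO-cRADKO mice 1 to 5, so the genotypes overlapped through MLPKO 5 and through MLPKO-cRADKO 3 and 5. For the assembly factors alone the medians ran from -0.22 to 0.03 in MLPKO and from 0.03 to 0.11 in MLPKO-cRADKO, and only MLPKO 5 reached the lower end of MLPKO-cRADKO.

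With the genotype means removed, the correlation of a member with the median of the other members over 10 mice had a median of 0.762 and exceeded 0.5 in 36 of 47, and Ndufa10 had the highest value, 0.917. It was below 0 in 4, Ndufa4l2 (-0.54), Ndufaf2 (-0.18), Ndufc2 (-0.057) and Ndufaf5 (-0.026). These points share libraries and scaling, and the values are descriptive.

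**Figure D5:**
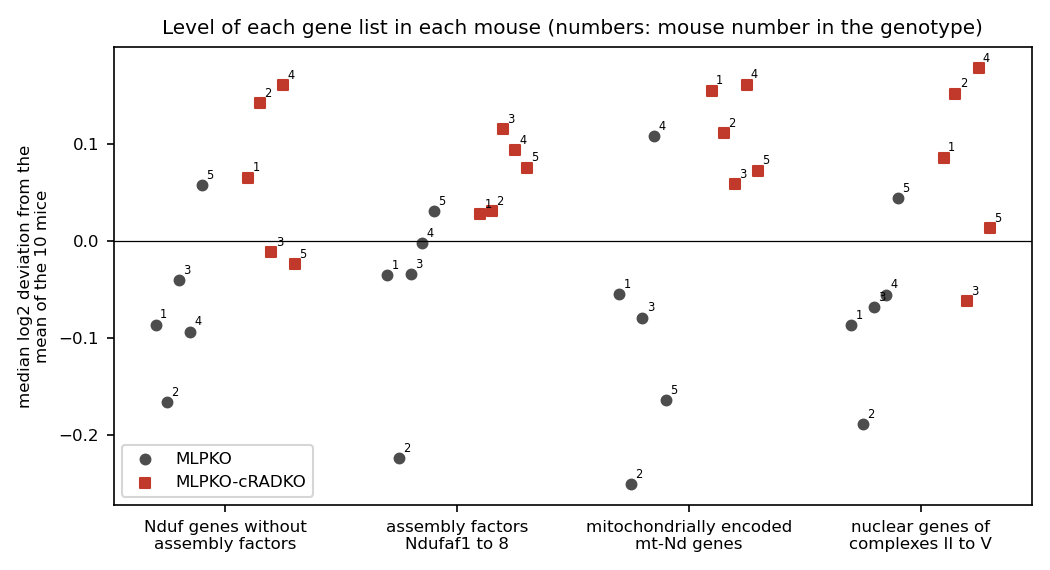
Median log2 deviation from the mean of the 10 mice (vertical axis) of 4 gene lists in each MLPKO mouse (circles) and MLPKO-cRADKO mouse (squares), labelled with the mouse number. MLPKO 5 is high and MLPKO-cRADKO 3 and 5 are low for the Nduf genes without assembly factors and for complexes II to V, while for the mitochondrially encoded genes MLPKO 4 is the high MLPKO mouse.

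The mitochondrially encoded subunits and the nuclear genes of complexes II to V were also mostly above 0, and differences between the lists were not tested. The 7 mitochondrially encoded subunits had a median log2 fold change of 0.14 with 7 of 7 above 0 and 0 called by edgeR (2 at an unadjusted p under 0.05, and 2 by DESeq2). mt-Nd2 had 0.29 (edgeR adjusted p of 0.0767) and mt-Nd1 0.29 (edgeR adjusted p of 0.0978), mt-Nd4 had 0.16, mt-Nd3 0.14, mt-Nd6 0.12, mt-Nd4l 0.07 and mt-Nd5 0.05. Without MLPKO 4, the MLPKO mouse with the highest mitochondrial share of counts, mt-Nd1 and mt-Nd2 passed in edgeR (adjusted p of 0.0404 and 0.0324). Neither passed with any other single mouse left out. Leaving out MLPKO 4 also raised the edgeR calls over all 13454 genes from 369 to 826. The share of all counts from mitochondrial DNA was 15.8% to 21.2% in MLPKO and 21.4% to 22.6% in MLPKO-cRADKO. The 47 nuclear genes of complexes II to V tested had a median of 0.15, with 46 above 0, 20 higher at an unadjusted p under 0.05, 7 called higher by DESeq2 and 1 called higher by edgeR, Cox8a (log2 fold change 0.32), named after its values were seen. Complex IV had the largest median of these complexes, 0.21, with 10 of 16 genes at an unadjusted p under 0.05. Beside these lists, 52.1% of all genes tested were above 0 and 10.1% were higher at an unadjusted p under 0.05. Of all genes tested, 3.81% were called higher by DESeq2 and 0.944% by edgeR.

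Cell type markers were also compared between the genotypes, and only some of the lists leaned one way. The 8 cardiomyocyte markers had a median log2 fold change of -0.20, with 1 above 0 and 1 called lower by edgeR, Tnnt2 (-0.57). The macrophage markers had 0.53 with 6 of 6 above 0 (summed 85.9 to 136 CPM in MLPKO and 116 to 225 in MLPKO-cRADKO), and the endothelial markers 0.22 with 5 of 5 above 0 (633 to 740 CPM and 737 to 927), with 0 called in either list. The fibroblast markers had 0.08 with 4 of 7 above 0 (1237 to 1703 CPM in MLPKO, 1114 to 1891 in MLPKO-cRADKO). The smooth muscle markers had 0.01 with 2 of 3 (74.7 to 196 and 126 to 271). For the skeletal muscle markers it was -0.03 with 1 of 3 (5783 to 18390 and 3496 to 8512). The atrial markers had 0.15 with 2 of 3, and spread widely within MLPKO (107 to 2302 CPM, beside 149 to 433 in MLPKO-cRADKO). Among these lists, edgeR called Dpt (0.93) and Acta2 (1.24) higher and Acta1 (-1.52) lower. The study counts Acta1, here in the skeletal muscle list, and Nppa, here in the atrial list, as foetal or hypertrophy genes of the heart. The sums of these 2 lists therefore need not come from skeletal or atrial tissue. No fat marker passed the filter on low counts (0 to 27.3 CPM summed). The skeletal muscle markers Myh1 and Myh4 and the brown fat marker Ucp1 had 3 counts or fewer in every mouse. The part of these lists in the complex I values was not tested.

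Values were also compared by transcript length. Coding genes of up to 700 bases other than the members had a median log2 fold change of 0.11 (94 of 131 above 0), beside 0.15 for the 10 members of that length. Of the 131, 15 belong to complexes II to V, and the other 116 had a median of 0.10. The genotypes overlapped, with a median log2 deviation of the 131 genes of 0.05 in MLPKO 5 beside 0.01 in MLPKO-cRADKO 3 and 5. From 700 to 1000 bases the values were 0.03 (351 genes) and 0.15 (12 members), from 1000 to 2500 bases 0.01 (3291 genes) and 0.11 (16 members), and above 2500 bases 0.01 (9222 genes) and 0.13 (9 members). With a per-library offset for transcript length, chosen after seeing the data, the median over the members was 0.09 and 0 were called by edgeR, with Ndufa1 at 0.21 (adjusted p of 0.0747) and Ndufv3 at 0.28 (adjusted p of 0.0547). The 18 members that share no sequence or exons had a median of 0.14 and included both called genes, and the 29 that do had 0.12.

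The promoters of the called genes are shown as the stretch of 250 bases before the canonical start in GRCm39, with capitals marking matches to the letters searched. The Ndufa1 stretch (chrX:36454850-36455099, minus strand) held no match, and the Ndufv3 stretch (chr17:31738825-31739074, plus strand) held an Sp1 match and a CCAAT box on the reverse strand.
Ndufa1: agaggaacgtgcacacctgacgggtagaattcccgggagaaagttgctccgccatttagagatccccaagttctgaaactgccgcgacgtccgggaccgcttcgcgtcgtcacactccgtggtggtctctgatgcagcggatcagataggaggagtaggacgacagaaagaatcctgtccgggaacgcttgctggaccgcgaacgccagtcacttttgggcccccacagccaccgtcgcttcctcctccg
Ndufv3: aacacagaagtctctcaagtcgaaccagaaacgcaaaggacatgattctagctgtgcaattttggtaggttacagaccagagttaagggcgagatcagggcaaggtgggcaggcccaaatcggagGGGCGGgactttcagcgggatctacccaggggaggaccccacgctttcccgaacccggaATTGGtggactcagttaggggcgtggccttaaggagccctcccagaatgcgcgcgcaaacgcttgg

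Over the window from 250 bases before to 50 after the start, on both strands, the YY1 letters AAGATGGC were found in 6 of 47 member promoters (12.8%), those of Ndufa2, Ndufa3, Ndufa4l2, Ndufa9, Ndufaf8 and Ndufb8, beside 3.28% of the 13042 coding genes tested and 2.47% of all coding promoters. The NRF1 letters GCATGCGC were found in 4 (8.51%, beside 4.66% and 3.68%), in Ndufa6, Ndufa13, Ndufaf4 and Ndufaf5, and the ERR letters AAGGTCA in 4 (8.51%, beside 3.66% and 4.48%), in Ndufb2, Ndufb4, Ndufs1 and Ndufs5. NRF1 and ERR are factors known to drive respiratory chain genes. GABP letters CCGGAAG (14.9%, beside 14.5% and 10.3%), the CCAAT box (34%, beside 39.1% and 39.9%) and the Sp1 letters GGGCGG (46.8%, beside 57.4% and 42.5%) were found at shares near or below those of the genes tested. Past the start, which is not printed, Ndufa1 held a GABP and an Sp1 match and Ndufv3 a further CCAAT box and Sp1 match. Neither called gene held an NRF1, ERR or YY1 match in the window, which says only that these letters were absent there. None of the letter strings searched contains another.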

How the data were processed

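RNA was extracted from the apical ventricle and poly(A) selected, and 1 library per mouse was sequenced. Per the labels, the authors used FastQC, STAR and featureCounts with GRCm39, and deposited raw counts per gene; versions, strand and the treatment of multiply mapping reads are not given in the sources used here. The table had 60676 genes, 3491 without a value, and 56629 of the 57185 others were in GENCODE M39, which gave symbols, biotypes and positions. Raw counts of all 10 mice were fitted with edgeR 4.0.16 in R 4.3.3 (TMM, quasi-likelihood test, Benjamini-Hochberg over 13454 genes; 6 mice or more had to exceed 10 counts, and Gm and Rik genes were excluded), and only complex I genes are printed. Normalized counts were counts scaled to the mean effective library size of 41338350. Intervals on log2 fold changes are standard errors derived from the edgeR fit, as the fold change over the square root of the F statistic. Intervals on means are SDs over the 5 mice of a genotype, which were separate animals. DESeq2 1.42.0, limma-voom 3.58.1, other scalings and filters, and each mouse left out were alternatives. Windows of 100 bases, every 5 bases, were aligned to the genome with minimap2 2.31. Replicate numbers name different animals and did not pair them. The members, modules and marker lists were chosen with earlier results of these data known. Values were given per mouse for called members, those with the smallest p up to 8, the 3 largest fold changes, and Ndufa4 and Ndufa4l2. A member that enters the counts and medians is not reported here by itself.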

Additional observations from a re-analysis of the deposited data

Results flagged for a closer look

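Groups of 5 mice covered each member, the mt-Nd genes and the medians of the lists. Among 124 such groups, 6 held a mouse that stood apart from the others by Dixon's ratio above 0.71. Chance gives about 1 in 20, but these groups share mice and members that vary together. The count therefore cannot tell whether the flags are due to chance. MLPKO 5 was the high mouse in 4 of the 6 groups: Ndufa6 with 6999 normalized counts, Ndufb1 with 2298, Ndufb6 with 2966 and Ndufc1 with 5570. MLPKO 4 was high for mt-Nd4l, with 1965 normalized counts. MLPKO 2 was low for the median of the assembly factors, with a log2 deviation of -0.22.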

How the results depend on the processing

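The median log2 fold change of the members stayed above 0 under each alternative run, between 0.09 (offset for transcript length) and 0.16 (3 libraries with the most even counts left out), and between 0.11 and 0.16 with single mice left out. The number of members called was 2, or 3 by DESeq2, and 0 with RLE size factors, with no filter on low counts, with Gm and Rik genes kept, with the 3 libraries left out, and with the length offset. It was 0 to 2 with single mice left out, 2 only without MLPKO 4. Over all genes, 369 were called, 1298 by DESeq2, 2 without the 3 libraries, and 47 (without MLPKO 5) to 826 (without MLPKO 4) with single mice left out. Complex I genes outside the Nduf list had 0 calls, 3 by DESeq2 and 0 to 2 with single mice left out. Mice of the same number did not deviate together (correlations from -0.056 to 0.139), and a replicate block called 0 members and 281 genes, with Ndufa1 at an edgeR adjusted p of 0.101 and Ndufv3 at 0.0991. Genes close to 0 changed sign. These were Ndufb5 (0.0004) and Ndufs3 (0.0076) with upper quartile factors, Ndufaf2 with limma-voom (-0.012), with the replicate block (-0.0031) and without the 3 libraries (-0.066), and Ndufs3 (0.0003) without the 3 libraries. With the length offset they were Ndufa2 (-0.031), Ndufaf2 (-0.054), Ndufb8 (-0.056), mt-Nd3 (-0.0026) and mt-Nd4l (-0.094). With single mice left out, the ranges that crossed 0 were -0.0705 to 0.0812 for Ndufaf1, -0.0721 to 0.0619 for Ndufaf2, -0.073 to 0.0614 for Ndufb8, -0.119 to 0.0198 for Ndufb3, -0.0427 to 0.0161 for Ndufb5, -0.053 to 0.0131 for Ndufs3 and -0.0037 to 0.18 for mt-Nd4l. Of 715 gene values under the alternatives other than leaving out a single mouse, 688 kept their direction and side of the threshold. Among these genes only Ndufa1 and Ndufv3 were called in the main fit. For the others, keeping the side meant staying uncalled, so this count says little about the stability of the calls. The causes were not tested.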

Other observations

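Besides Ndufs5-ps, 6 Nduf genes that are not protein coding were counted. Ndufa12-ps had 119 to 157 normalized counts in MLPKO and 140 to 183 in MLPKO-cRADKO (log2 fold change 0.27, edgeR adjusted p of 0.232). Ndufab1-ps, Ndufs6b, Ndufb4b and Ndufb4c had means from 23.9 to 85.3 normalized counts in either genotype with edgeR adjusted p of 0.68 or more, and Ndufa11b was not tested. Exons of Ndufb8, Ndufb2 and Ndufb9 overlap on the same strand with Gm20538, Gm42420 and Gm49356, each of which had 0 counts in all 10 mice. For Ndufb8, 68.6% of the exonic bases are shared in this way, and it had 502 to 753 normalized counts per mouse.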
